A study of Mus musculus with 12 samples.

Results

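The 9 genes described here encode the transcription factors that build skeletal muscle: the paired-box factors Pax3 and Pax7, the myogenic regulatory factors Myf5, Myod1, Myog and Myf6, and the MEF2 factors Mef2a, Mef2c and Mef2d. They were listed by name, and each was read from 1 probe set among 19937 genes on 12 mouse arrays. Tumours were sampled at day 0 of doxycycline withdrawal (TUM), and 3 days (OFF3) and 6 days (OFF6) after withdrawal, and hindlimb muscle served as control (CTL), with 3 arrays in each of the 4 groups. Donors on a C57BL/6 background carried Myf5Cre, R26-LSL-rtTA and Col1a-Teto-hYAP1 S127A, so that doxycycline turned on a mutant human YAP1, the transcriptional coactivator that Hippo signalling restrains, only in cells with a history of Myf5 expression. After donors had been on doxycycline for 4 weeks, their hindlimb interstitial muscle cells were grafted into the gastrocnemius of NOD/SCID hosts kept on doxycycline. The OFF3 and OFF6 tumours came from hosts taken off the drug, and CTL muscle came from mice of the donor genotype that were never induced. The study asks what YAP1 does in rhabdomyosarcoma, a tumour with skeletal muscle features.

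Muscle progenitors of the embryo and satellite cells of the adult are marked by Pax3 and Pax7. Myf5 and Myod1 are basic helix-loop-helix (bHLH) factors that commit such cells to the myoblast fate, Myog drives their terminal differentiation, and Myf6, also called MRF4, is the member of that family most abundant in adult fibres. These 4 factors pair with E proteins and bind E-boxes, and MEF2 factors act with them on the same muscle genes. The Cre that switches on the transgene is driven from Myf5, itself among the 9, and Myf5Cre was carried by the donors and control mice of all 4 groups. Whether that allele alters Myf5 output was not tested.

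Proximal promoters were available from RefSeq (GRCm38.p6) for 6 of the 9 genes, in 8 windows, and were read over the 250 bases before each annotated start. Windows are shown for Myog and Mef2c, which rose after withdrawal, and for Myf5, which fell. Mef2a and Mef2d also rose by day 6 and Pax7 also fell, and their windows are not shown. Of the 6 genes, only Myog and Mef2c held a marked match, so the windows shown do not represent the 8. Capitals mark E-boxes (CANNTG, which reads alike on both strands), the MCAT element bound by TEAD factors, the DNA-binding partners of YAP1 (CATTCC or GGAATG), and TATATTTA, the core of the MEF2 site known from the Myog promoter. No 2 of the marked matches overlap. The Myog window is chr1:134289754-134290003 (plus strand), the first of 3 Mef2c windows is chr13:83503784-83504033 (plus strand) and the Myf5 window is chr10:107486135-107486384 (minus strand).
Myog: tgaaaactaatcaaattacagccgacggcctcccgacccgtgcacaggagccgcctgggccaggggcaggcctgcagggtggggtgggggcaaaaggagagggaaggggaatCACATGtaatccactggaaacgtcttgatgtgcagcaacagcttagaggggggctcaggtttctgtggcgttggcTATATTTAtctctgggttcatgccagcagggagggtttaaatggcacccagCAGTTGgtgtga
Mef2c: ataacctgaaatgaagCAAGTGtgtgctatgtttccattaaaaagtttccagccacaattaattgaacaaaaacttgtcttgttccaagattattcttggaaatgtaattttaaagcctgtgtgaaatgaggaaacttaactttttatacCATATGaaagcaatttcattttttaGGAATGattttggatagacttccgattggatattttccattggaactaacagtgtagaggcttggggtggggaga
Myf5: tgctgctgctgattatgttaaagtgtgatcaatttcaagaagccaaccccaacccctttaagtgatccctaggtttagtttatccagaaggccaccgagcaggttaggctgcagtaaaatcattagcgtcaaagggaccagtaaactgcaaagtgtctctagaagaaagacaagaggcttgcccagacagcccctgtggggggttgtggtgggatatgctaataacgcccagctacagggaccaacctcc
In the Myog window the E-boxes CACATG and CAGTTG lay 138 to 133 and 12 to 7 bases before the start, with TATATTTA at 63 to 56 bases between them. The Mef2c window held the E-boxes CAAGTG and CATATG and 1 MCAT element, GGAATG, 75 to 70 bases before the start. The second Mef2c window held none of the motifs and the third held 1 E-box, while none was found in the windows of Myf5, Pax7, Mef2a and Mef2d. Of 32851 promoter windows of the same length, 66.2% held an E-box, 12.6% an MCAT element and 1.12% TATATTTA on either strand. The longer MEF2 consensus was found in 2.92% of windows and in 0 of the 8 windows of these genes. These matches describe letters only, since no binding was measured.

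Probe set intensities were log2-transformed, and each difference below is a log2 difference ± standard error from 1 limma model over all 12 arrays and 19937 genes, called a change at a Benjamini-Hochberg adjusted p under 0.05. Median intensity ran from 86.74 to 93.05 across arrays. Mean correlation with its own group lay between 0.991 and 0.999 for the 12 arrays, and OFF6 replicate 2 (0.991) was closer to the OFF3 arrays (0.995), so values without it are given where it matters. No scan date or batch was given. Mouse Yap1 averaged 9.86 ± 0.03 in TUM, 9.57 ± 0.05 in OFF3, 9.61 ± 0.10 in OFF6 and 9.56 ± 0.12 in CTL (SD, n = 3 each), and how far its probe set reads the human transgene is not known. Myf5 lay below the median of all probe sets on the 3 CTL arrays, and the other 8 genes lay above it on every array. Pax3 was close to that median in CTL, with intensities of 87.0 to 104.9. Over the 12 arrays, 53.2% of genes had a higher mean than Pax3 and 50.6% a higher mean than Pax7. The filter at the median level left both of these genes out. Apart from that check, levels are compared within a gene only.

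**Figure D1:**
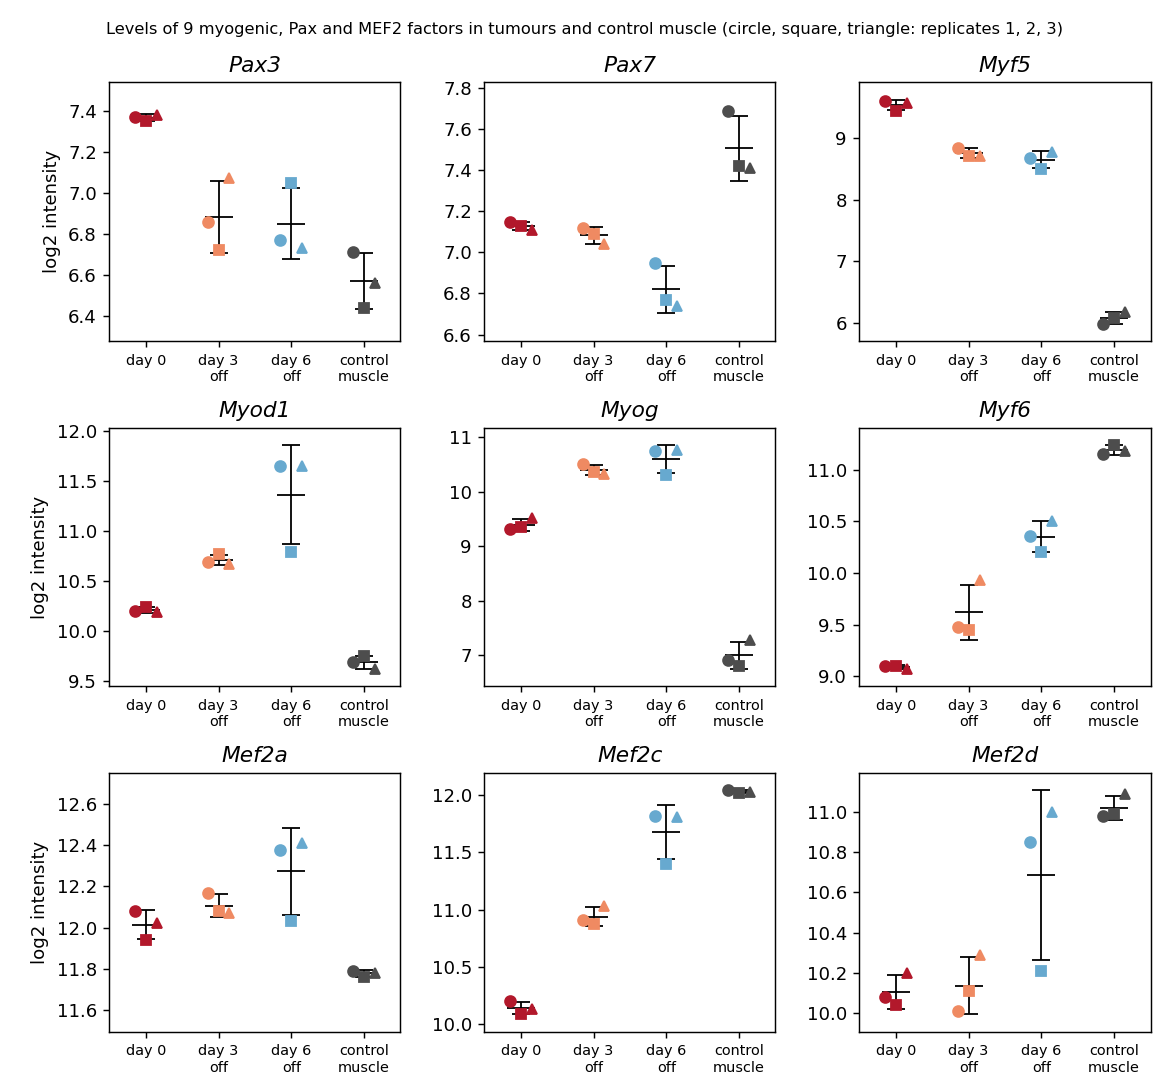
Log2 intensity of each of the 9 genes on every array, for tumours at day 0, 3 days and 6 days off doxycycline and for control muscle. Symbols are replicates 1 to 3, and bars are mean ± SD of 3 arrays. Myf5 was highest at day 0 (9.43 to 9.59), Myog was lowest in control muscle (6.80 to 7.28), and the square of OFF6 sits low for Myod1 (10.79) and Mef2d (10.21).

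Before withdrawal, TUM tumours differed from CTL muscle in all 9 factors, and the differences ran both ways. Myf5 and Myog, the early determination factor and the differentiation factor, stood 10.9-fold and 5.28-fold higher in TUM, and Pax3, Myod1 and Mef2a were higher by 1.73-fold or less. Myf6 and Mef2c, both abundant in mature fibres, were 4.29-fold and 3.71-fold lower in TUM, with Mef2d and Pax7 lower too. Over all genes 76.2% were called, 30.3% higher and 45.9% lower, and 82.7% did not overlap between the groups, so 9 of 9 called and 9 of 9 without overlap is not far above that background. The median over the 9 genes was 0.23, against -0.15 over all genes. With arrays centred on their 75th percentile, the median of all genes moved to -0.38 and calls higher in TUM made up 27.5% of calls, against 39.7% in the model reported. In that setting 7 of the 9 were called, without Myod1 and Mef2a, against 88.0% of all genes.

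After withdrawal the members split. Myod1, Myog, Myf6, Mef2c, Mef2a and Mef2d rose by day 6, while Myf5, Pax3 and Pax7 fell. At day 3, 4 rose (Myog, Mef2c, Myf6, Myod1), 2 fell (Myf5, Pax3) and 3 did not pass, that is 6 of 9 called, against 29.4% of all genes (13.4% higher). At day 6, 6 rose and 3 fell, 9 of 9 called, against 31.5% of all genes (14.9% higher and 16.6% lower). There was no overlap between OFF3 and TUM in 6 of 9 genes (44.8% of all genes), and between OFF6 and TUM in 8 of 9 (48.5%). Day 3 and day 6 share the TUM arrays, so their changes are not independent of each other.

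**Figure D2:**
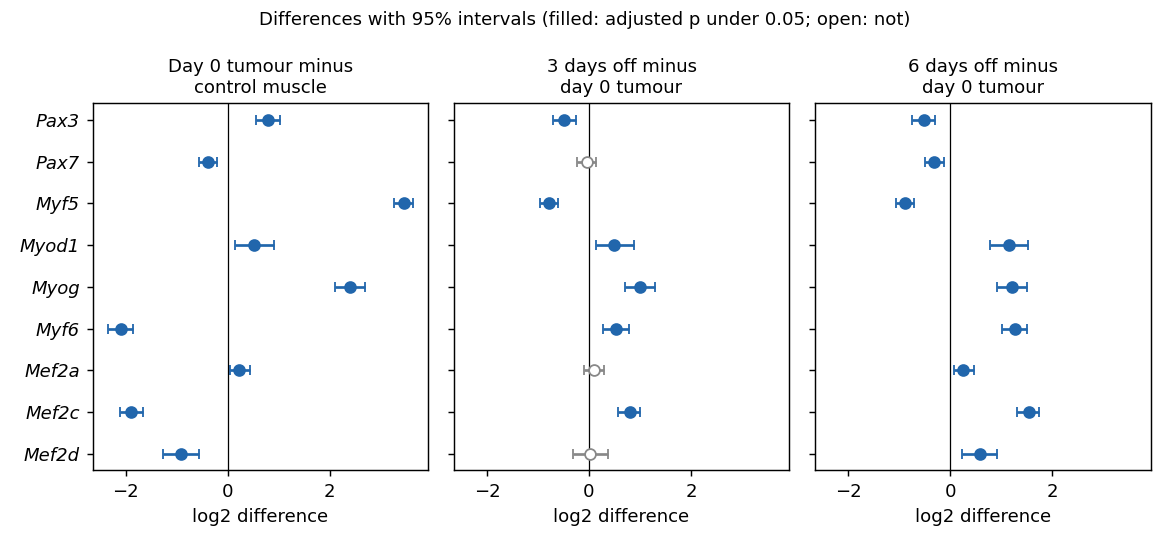
Log2 differences of the 9 genes with 95% intervals, for day 0 tumours minus control muscle and for tumours 3 and 6 days off doxycycline minus day 0. Filled points passed an adjusted p of 0.05, and open points did not. Myf5 (3.45) and Myog (2.40) lie right of 0 in the first panel, but by day 6 Myf5 had fallen (-0.88) and Myog had risen (1.21).

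Pax3, a factor of embryonic muscle progenitors, was at its highest in day 0 tumours. Its log2 levels were 7.37, 7.35 and 7.38 in TUM, 6.86, 6.72 and 7.07 in OFF3, 6.77, 7.05 and 6.73 in OFF6, and 6.71, 6.44 and 6.56 in CTL. All 3 TUM arrays lay above every other array, the OFF3 and OFF6 arrays were intermixed, and each of them lay above the highest CTL array. Pax3 was 0.79 ± 0.11 higher in TUM than in CTL (adjusted p = 1.95e-05, limma), then fell by day 3 (-0.48 ± 0.11, adjusted p = 0.00375) and at day 6 (-0.52 ± 0.11, adjusted p = 0.00225). OFF6 stood 0.28 ± 0.11 above CTL (adjusted p = 0.0351), a call lost without OFF6 replicate 2 (0.18, adjusted p = 0.137), CTL replicate 2 (0.21, adjusted p = 0.128) or CTL replicate 3 (0.27, adjusted p = 0.0760). It was also lost with quantile normalisation (0.22, adjusted p = 0.0774), with centring on the 75th percentile (0.09, adjusted p = 0.481), with only the 6 arrays compared (adjusted p = 0.0608) and with all probe sets tested (adjusted p = 0.0508).

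Pax7, the defining factor of adult satellite cells, was higher in control muscle than in any tumour. It measured 7.15, 7.13 and 7.11 in TUM, 7.12, 7.09 and 7.04 in OFF3, 6.95, 6.77 and 6.74 in OFF6, and 7.69, 7.42 and 7.41 in CTL. The TUM and OFF3 arrays overlapped, and the OFF6 arrays lay below both. It was lower in TUM than in CTL (-0.38 ± 0.08, adjusted p = 0.00122) and lower still in OFF6 than in CTL (-0.69 ± 0.08, adjusted p = 1.01e-05). Day 3 gave no call (-0.04 ± 0.08, adjusted p = 0.770, 95% interval -0.23 to 0.14). The fall at day 6 (-0.31 ± 0.08, adjusted p = 0.0125) was lost without OFF6 replicate 3 (-0.27, adjusted p = 0.0547) and with centring on the 75th percentile (-0.26, adjusted p = 0.0557).

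Myf5, the first of the myogenic bHLH factors to appear in the embryo, had the largest difference of the 9 between TUM and CTL. Its log2 levels were 9.59, 9.43 and 9.57 in TUM, 8.84, 8.70 and 8.70 in OFF3, 8.67, 8.50 and 8.77 in OFF6, and 5.99, 6.08 and 6.18 in CTL. No TUM array overlapped the OFF3 or OFF6 arrays, which overlapped each other, and all tumour arrays lay far above CTL. The excess over CTL was 3.45 ± 0.08 in TUM (adjusted p = 3.78e-12) and 2.56 ± 0.08 in OFF6 (adjusted p = 4.98e-11), still 5.91-fold. Against TUM, Myf5 fell 1.72-fold by day 3 (-0.78 ± 0.08, adjusted p = 1.67e-05) and 1.84-fold at day 6 (-0.88 ± 0.08, adjusted p = 4.98e-06). OFF6 and OFF3 differed by -0.10 ± 0.08 (adjusted p = 0.545).

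Myod1, the factor able to turn other cells into muscle, rose after withdrawal where Myf5 fell, though both were higher in TUM than in CTL. It measured 10.20, 10.24 and 10.19 in TUM, 10.69, 10.77 and 10.67 in OFF3, 11.65, 10.79 and 11.65 in OFF6, and 9.69, 9.75 and 9.62 in CTL. The groups did not overlap and lay in the order CTL, TUM, OFF3, OFF6, although OFF6 replicate 2 was barely above the OFF3 arrays. The day 6 rise was 2.22-fold (1.15 ± 0.17, adjusted p = 0.000241), and 1.44 on the log2 scale without OFF6 replicate 2 (adjusted p = 5.57e-09). At day 3 the difference was 0.50 ± 0.17 (adjusted p = 0.0457), a call lost without any 1 of the 9 arrays of CTL, TUM or OFF3 (adjusted p between 0.0601 and 0.122), with arrays centred on their median (0.45, adjusted p = 0.0803), with log2(intensity + 16) (adjusted p = 0.0582) and with all probe sets tested (adjusted p = 0.0803). Relative to CTL, Myod1 was 0.52 ± 0.17 higher in TUM (adjusted p = 0.0162; 0.28 with centring on the 75th percentile, adjusted p = 0.149) and 1.67 ± 0.17 higher in OFF6 (adjusted p = 2.43e-06).

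Myog, encoding myogenin, rose by day 3 to a level that day 6 did not clearly exceed. Its log2 levels were 9.31, 9.35 and 9.52 in TUM, 10.51, 10.37 and 10.33 in OFF3, 10.74, 10.31 and 10.76 in OFF6, and 6.90, 6.80 and 7.28 in CTL. The OFF3 and OFF6 arrays overlapped through OFF6 replicate 2, and both groups lay above all TUM arrays, which in turn lay above all CTL arrays. Myog was 2.01-fold higher by day 3 (1.01 ± 0.14, adjusted p = 0.000121) and stood 2.32-fold above TUM at day 6 (1.21 ± 0.14, adjusted p = 2.20e-05). OFF6 and OFF3 differed by 0.20 ± 0.14 (adjusted p = 0.416, 95% interval -0.09 to 0.50). The excess over CTL was 2.40 ± 0.14 in TUM (adjusted p = 4.63e-09) and 3.61 ± 0.14 in OFF6 (adjusted p = 1.81e-10), or 12.2-fold.

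Myf6, the fibre-associated member of the family, was lowest at day 0 and climbed in both intervals. It measured 9.10, 9.10 and 9.07 in TUM, 9.48, 9.45 and 9.93 in OFF3, 10.36, 10.20 and 10.50 in OFF6, and 11.15, 11.24 and 11.18 in CTL. None of the 4 groups overlapped, and the order was TUM, OFF3, OFF6, CTL. The rise was 1.45-fold by day 3 (0.53 ± 0.11, adjusted p = 0.00347) and 2.40-fold at day 6 (1.27 ± 0.11, adjusted p = 3.37e-06), with OFF6 still 1.78-fold below CTL (-0.83 ± 0.11, adjusted p = 3.21e-05). With the TUM mean set to 0% and the CTL mean to 100% on the log2 scale, the OFF3 arrays lay at 17.2% to 40.2% and the OFF6 arrays at 53.0% to 67.2%. In the RefSeq gene order Myf5 and Myf6 are neighbours on mouse chromosome 10, and they moved in opposite directions in all of TUM minus CTL, OFF3 minus TUM and OFF6 minus TUM.

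Mef2c, a MEF2 factor needed for fibre maturation and also known in endothelium and immune cells, had the largest rise of the 9 by day 6. Its log2 levels were 10.20, 10.09 and 10.13 in TUM, 10.91, 10.87 and 11.03 in OFF3, 11.82, 11.40 and 11.81 in OFF6, and 12.04, 12.02 and 12.03 in CTL. The 4 groups did not overlap and followed the same order as Myf6. Mef2c was 1.89 ± 0.10 lower in TUM than in CTL (adjusted p = 2.14e-09) and rose 1.74-fold by day 3 (0.80 ± 0.10, adjusted p = 6.14e-05) and 2.90-fold at day 6 (1.54 ± 0.10, adjusted p = 2.43e-07). On the scale from the TUM mean to the CTL mean, OFF3 arrays lay at 38.8% to 47.1% and OFF6 arrays at 66.5% to 88.9%. The remaining gap between OFF6 and CTL was -0.35 ± 0.10 (adjusted p = 0.00767), and -0.21 without OFF6 replicate 2 (adjusted p = 0.0126).

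Mef2d, a widely expressed member with a muscle splice form, was not called at day 3. It measured 10.08, 10.04 and 10.20 in TUM, 10.01, 10.11 and 10.29 in OFF3, 10.85, 10.21 and 11.00 in OFF6, and 10.98, 10.99 and 11.09 in CTL. TUM and OFF3 overlapped, OFF6 replicates 1 and 3 were close to CTL, and OFF6 replicate 2 lay within the OFF3 range and just above TUM. Mef2d was 0.91 ± 0.16 lower in TUM than in CTL (adjusted p = 0.000201). The day 3 difference was 0.03 ± 0.16 (adjusted p = 0.925), its sign turning with arrays centred on their median (-0.02), and the day 6 rise was 0.58 ± 0.16 (adjusted p = 0.0134). That rise was 0.82 without OFF6 replicate 2 (adjusted p = 1.53e-05), and the call was lost without OFF6 replicate 1 (adjusted p = 0.0568) or 3 (adjusted p = 0.0599) and with only the 6 arrays compared (adjusted p = 0.0591). A second, dimmer Mef2d probe set gave -1.12 ± 0.17 for TUM minus CTL (adjusted p = 6.85e-05), 0.22 ± 0.17 for OFF3 minus TUM (adjusted p = 0.397) and 0.44 ± 0.17 for OFF6 minus TUM (adjusted p = 0.0706), adjusted over all probe sets with 1 symbol. OFF6 and CTL were not called different by the brighter probe set (-0.33 ± 0.16, adjusted p = 0.0813), but they were by the dimmer one (-0.69 ± 0.17, adjusted p = 0.00368), by the mean of both (-0.51), with centring on the 75th percentile (-0.52, adjusted p = 0.0115) and without OFF6 replicate 3 (-0.49, adjusted p = 0.0159).

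Mef2a, another broadly expressed MEF2 factor, spanned the narrowest range of the 9 over the 12 arrays. Its log2 levels were 12.08, 11.94 and 12.02 in TUM, 12.17, 12.08 and 12.07 in OFF3, 12.38, 12.03 and 12.41 in OFF6, and 11.79, 11.76 and 11.78 in CTL. All tumour arrays lay above CTL, and the 3 tumour groups overlapped one another. The excess of TUM over CTL was 0.23 ± 0.09 (adjusted p = 0.0302), a call lost with quantile normalisation (0.12, adjusted p = 0.230), turned to -0.0020 with centring on the 75th percentile (adjusted p = 0.985), and lost without any 1 CTL array or TUM replicate 1 or 3 (adjusted p from 0.0544 to 0.101). OFF3 minus TUM was 0.10 ± 0.09 (adjusted p = 0.502). OFF6 was 0.26 ± 0.09 above TUM (adjusted p = 0.0419), or 0.38 without OFF6 replicate 2 (adjusted p = 0.000457). That call was lost without any 1 of the CTL or TUM arrays, OFF3 replicate 2 or OFF6 replicate 1 or 3 (adjusted p from 0.0511 to 0.165), with arrays centred on their median (adjusted p = 0.0676), with only the 6 arrays compared (adjusted p = 0.108) and with all probe sets tested (adjusted p = 0.0651). OFF6 was 0.50 ± 0.09 above CTL (adjusted p = 0.000350).

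Between day 3 and day 6, Mef2c, Myf6 and Myod1 rose further, Mef2d, not called at day 3, rose, and none of the 9 fell past the threshold. The rises were 0.74 ± 0.10 for Mef2c (adjusted p = 0.00168), 0.73 ± 0.11 for Myf6 (adjusted p = 0.00353), 0.65 ± 0.17 for Myod1 (adjusted p = 0.0339) and 0.55 ± 0.16 for Mef2d (adjusted p = 0.0457). Mef2d was not called by its dimmer probe set (0.21 ± 0.17, limma, adjusted p = 0.512) or by the mean of both (0.38, adjusted p = 0.133). Pax7 was 0.26 ± 0.08 lower on OFF6 arrays, none of which overlapped OFF3, but did not pass (adjusted p = 0.0642), and it was the 1 fall at an unadjusted p under 0.05. Thus 4 of 9 were called, against 10.4% of all genes (6.05% higher and 4.38% lower), and 4 of 9 did not overlap against 21.2%. Array weights called 7 of the 9 (42.3% of all genes), and median centring raised the share of all calls that were higher in OFF6 to 71.6%, against 58.0%. Myod1 and Mef2d rest on OFF6 replicates 1 and 3: without replicate 2 the rises were 0.94 and 0.79 (adjusted p = 9.66e-07 and 5.45e-05), and Mef2a was then called too (0.29, adjusted p = 0.00548). The Myod1 call was lost without any 1 TUM or OFF3 array or OFF6 replicate 1 or 3 (adjusted p from 0.0518 to 0.164), and the Mef2d call without any 1 CTL or TUM array, OFF3 replicate 1 or 2 or OFF6 replicate 1 or 3 (adjusted p from 0.0598 to 0.208). With only the 6 OFF6 and OFF3 arrays in the limma model, 0 of the 9 passed (30 of 19937 genes did), with 5 at an unadjusted p under 0.05.

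At day 6 the tumours still differed from control muscle in most of these factors. Myog, Myf5, Myod1, Mef2a and Pax3 were higher in OFF6 than in CTL, Myf6, Pax7 and Mef2c were lower, and Mef2d did not pass. That is 5 higher and 3 lower, against 64.2% of all genes called, 28.1% higher and 36.1% lower, and 8 of 9 did not overlap, against 68.5% of all genes. Calls higher in OFF6 made up 27.3% of all calls with centring on the 75th percentile, against 43.8% in the model reported.

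Most target genes of the myogenic bHLH and MEF2 factors rose after withdrawal. Among 23 measured targets of the myogenic bHLH factors, 15 rose and 2 fell (1 without OFF3 replicate 3) in OFF3. Over all genes 29.4% were called in OFF3 minus TUM, with 13.4% called higher and the rest lower. In OFF6, 19 of the targets rose and 0 fell, against 14.9% and 16.6% of all genes. The median difference of the targets was 0.59 in OFF3 and 1.03 in OFF6, against 0.02 and 0.05 over all genes. Ckm and Mylpf on this list are also fibre markers, and Cdh15 also a satellite cell marker. In OFF3 the largest changes were in Pgam2, a glycolytic enzyme (1.83 ± 0.14), the embryonic myosin Myh3 (1.58 ± 0.12) and the slow troponin Tnni1 (1.54 ± 0.11), while Cdh15, the myoblast cadherin, fell (-0.45 ± 0.12). In OFF6 Tnni1 (2.36 ± 0.11), Myh3 (2.28 ± 0.12) and Pgam2 (2.02 ± 0.14) led again. The list was split between TUM and CTL, with 11 higher and 11 lower in TUM, against 30.3% and 45.9% of all genes. Those higher in TUM included the cardiac-type troponin Tnnt2 (3.15 ± 0.13) and the fetal acetylcholine receptor subunit Chrng (2.87 ± 0.15), and the largest drop was in Pgam2 (-3.02 ± 0.14). Between day 3 and day 6, 10 rose and 1, creatine kinase Ckm, fell (-0.44 ± 0.10), against 6.05% and 4.38% of all genes. Without OFF6 replicate 1 or 3 the counts were 4 and 0.

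Among 10 MEF2 target genes, 0 were higher and 9 lower in TUM than in CTL, against 30.3% and 45.9% of all genes. Their median was -3.37, against -0.15 over all genes. The glycerol phosphate dehydrogenase Gpd1 (-4.86 ± 0.14), the mitochondrial regulator Ppargc1a (-4.41 ± 0.15) and the M-band gene Myom1 (-3.98 ± 0.13) were lowest relative to CTL. After withdrawal 8 rose in OFF3 (13.4% of all genes) and 9 in OFF6 (14.9% of all genes), with 0 falls and medians of 1.02 and 1.63. Gpd1 rose most on both days (2.14 ± 0.14 in OFF3 and 2.38 ± 0.14 in OFF6), and Srpk3, a muscle kinase, followed in OFF6 (2.24 ± 0.22). In OFF6, 8 of the 10 were still lower than in CTL (36.1% of all genes) and 0 were higher (1 without OFF6 replicate 2), with a median of -1.65, against -0.09 over all genes. The summed intensity of the list ran from 4515.5 to 4669.4 in TUM, 7192 to 9285.7 in OFF3, 9749.2 to 12728.4 in OFF6, and 30456.5 to 31612 in CTL.

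Of 5 targets of Pax3 and Pax7, 1 rose and 1 fell in OFF3 (29.4% of all genes called), and 1 rose and 2 fell in OFF6 (31.5% of all genes called). Lbx1 on this list is also counted below among the upstream factors, and Id3 among the Id and other bHLH inhibitors. The rises in OFF3 were 2 without OFF3 replicate 1 and 3 without OFF3 replicate 3, and the falls in OFF6 were 1 without TUM replicate 2 or 3 or OFF6 replicate 2. Met, the receptor of hepatocyte growth factor, fell on both days (-1.01 ± 0.09 in OFF3 and -1.32 ± 0.09 in OFF6), the FGF receptor Fgfr4 fell in OFF6 (-0.55 ± 0.16), and the muscle RING-finger gene Trim54 rose (0.78 ± 0.12 in OFF3 and 1.22 ± 0.12 in OFF6). In TUM, 3 of the 5 were higher than in CTL, led by Fgfr4 (2.07 ± 0.16), and 2 were lower, of which Trim54 was lowest (-2.96 ± 0.12). Over all genes 30.3% were called higher and 45.9% lower in TUM.

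The E proteins, partners of the bHLH factors, were higher in TUM, and the inhibitors were mixed. These list counts are to be read against the shares of all genes called, 76.2% for TUM minus CTL (30.3% higher and 45.9% lower), 29.4% for OFF3 minus TUM and 31.5% for OFF6 minus TUM. All 3 E proteins were higher in TUM than in CTL, with Tcf3 at 1.30 ± 0.08, and after withdrawal Tcf3 fell (-0.36 ± 0.08 in OFF3 and -0.50 ± 0.08 in OFF6) while Tcf4 rose in OFF3 (0.29 ± 0.05) and was not called in OFF6 (0.09 ± 0.05). Of 13 Id and other bHLH inhibitors, 5 were higher and 7 lower in TUM than in CTL, Id2, which sequesters E proteins, being the highest (2.75 ± 0.09) and the Notch effector Hey1 the lowest (-1.02 ± 0.10). In OFF3, 6 of the 13 rose and 1 fell, a fall count of 2 without OFF6 replicate 2 and 0 without CTL replicate 3 or any 1 TUM or OFF3 array. In OFF6, 5 rose (3 without OFF6 replicate 3) and 2 fell, with 0 falls without TUM replicate 1 or 3, and 1 without any 1 CTL array, OFF3 replicate 2 or OFF6 replicate 1 or 3. Hey1 rose on both days (0.72 ± 0.10 in OFF3 and 0.75 ± 0.10 in OFF6), and Id1 rose in OFF6 (0.67 ± 0.08). Of 8 MEF2 repressors and coactivators, 2 were higher and 6 lower in TUM than in CTL, led by Smarcd3, a chromatin remodelling subunit (-1.81 ± 0.14), and the class II deacetylase Hdac9 (-1.40 ± 0.08). In OFF6, 4 of them rose and 1 fell, with the MEF2 coactivator Mamstr at 0.84 ± 0.20 and Hdac7 at -0.69 ± 0.07, and in OFF3 the counts were 3 and 1 (0 falls without TUM replicate 2). Of 7 measured upstream factors, from the Eya and Pitx families with Six4, Lbx1 and Tbx1, 0 were higher and 6 lower in TUM, with Lbx1 at -1.94 ± 0.11 and Eya1 at -1.46 ± 0.07, and after withdrawal 0 rose and 1 fell in OFF3 and 2 rose and 1 fell in OFF6. The rises in OFF3 were 2 without OFF3 replicate 1 and 1 without OFF3 replicate 3, and those in OFF6 were 0 without TUM replicate 1 or 3, OFF3 replicate 2 or OFF6 replicate 1, and 1 without any 1 CTL array or OFF6 replicate 3.

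**Figure D3:**
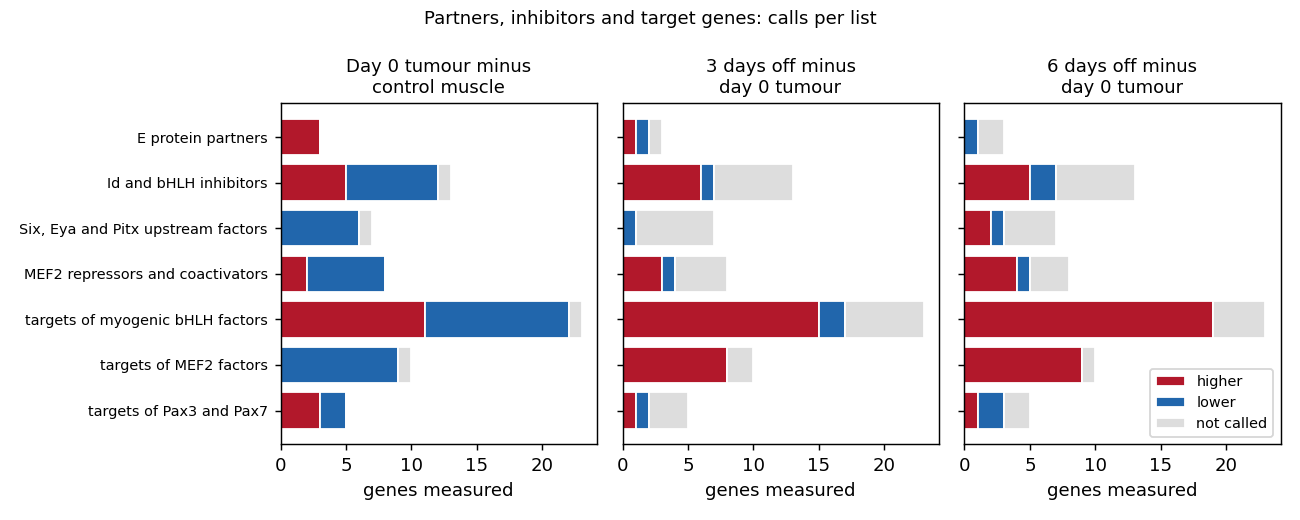
Number of measured genes called higher (red), lower (blue) or not called (grey) at an adjusted p of 0.05 in 7 lists of partners, inhibitors and target genes, for the 3 comparisons named above each panel. The targets of myogenic bHLH factors show 19 of 23 higher and 0 lower at day 6, and the MEF2 targets 9 of 10. Over all genes 14.9% were called higher and 16.6% lower at day 6.

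Other cells contribute to these bulk arrays, and a smaller share of a cell type and less RNA per cell cannot be told apart in them. Adult fibre markers were lower in TUM than in CTL for 12 of 12 genes and rose in 11 of 12 on both days, with 1 fall in OFF6 without OFF6 replicate 2. Their summed intensity ran from 27050.2 to 29006.4 in TUM, 48436.5 to 62689.1 in OFF3, 51496.8 to 53773.5 in OFF6 and 98747.5 to 101719.4 in CTL. The tumours grew inside host gastrocnemius. At day 3 they rose beside Myf6 and Mef2c, while Mef2d was not called (0.03). Between day 3 and day 6, where Myf6, Mef2c and Mef2d were called higher, 2 of the 12 fibre markers rose (0 to 5 leaving out 1 array), 2 fell (0 without OFF6 replicate 1 or 3) and 8 were not called, with a median of 0.04. The part of fibre RNA in the results of these factors was not tested. Myog and Myf5 were lowest in the CTL muscle, where the fibre markers were highest. Endothelial markers, which accompany Mef2c in vessels, were lower in TUM for 8 of 8 genes and rose in 8 of 8 in OFF3 and 7 of 8 in OFF6, with sums of 3755.1 to 3830.4 in TUM, 5672.6 to 6044.5 in OFF3, 4423.5 to 5278.7 in OFF6 and 6356.3 to 6491.2 in CTL. Between day 3 and day 6, where Mef2c rose, 0 of the 8 endothelial markers rose and 4 fell, a count of 7 without OFF6 replicate 2 and of 1 or 2 without any 1 of the other 11 arrays. The part of endothelial RNA in the Mef2c results was not tested.

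Dividing-cell markers fell in 5 of 5 genes on both days, beside the falls of Myf5 and Pax3, and were higher in TUM than in CTL for 5 of 5. Their sums were 5305.2 to 5618.4 in TUM, 914 to 1469.2 in OFF3, 1031.7 to 1430.1 in OFF6 and 285 to 332 in CTL. Satellite cell surface genes ran against the low Pax7 in part: 5 of 8 were higher and 3 lower in TUM than in CTL (1 lower without TUM replicate 3). Over all genes these shares were 30.3% and 45.9%. In OFF6, 5 of the satellite cell surface genes were higher and 2 lower than in CTL, against 28.1% and 36.1% of all genes. Their sums were 8130.1 to 8241.4 in TUM, 6886.7 to 7799.0 in OFF3, 7130.2 to 8616.3 in OFF6 and 2144.0 to 2324.6 in CTL. Against TUM they gave 2 rises and 3 falls in OFF3, and 1 rise (2 without OFF6 replicate 2) and 3 falls in OFF6, and of the 8 Calcr and Chrdl2 lay below the array median on all 12 arrays. Macrophage markers were higher in TUM than in CTL for 7 of 7 genes, with 2 rises and 1 fall in OFF3 and 0 and 2 in OFF6. Without OFF6 replicate 2 the rises in OFF3 were 4 and the falls in OFF6 were 5, without OFF6 replicate 1 the falls in OFF6 were 1, without any 1 TUM array or OFF3 replicate 1 or 3 the rises in OFF3 were 1, and without any 1 TUM or OFF3 array the falls in OFF3 were 0. Fibroblast markers rose in 6 of 7 genes in OFF3 and 5 of 7 in OFF6, with 1 fall in OFF6 (0 without TUM replicate 2 or OFF6 replicate 3), and smooth muscle and pericyte markers in 5 of 6 on both days. In TUM against CTL, where 76.2% of all genes were called, 4 of the 7 fibroblast markers were higher and 3 lower. Of the 6 smooth muscle and pericyte markers, 2 were higher and 4 lower. Of 3 B cell markers, Cd79a and Ms4a1 lay below the array median on all 12 arrays, and 1 rose in OFF3 (0 without CTL replicate 1 or any 1 TUM or OFF3 array) and 0 in OFF6. Of 5 Schwann cell and melanocyte markers, cells that can also carry Pax3, 0 were called after withdrawal in either direction and 5 were lower in TUM than in CTL, whereas Pax3 was higher there. S100b, Dct and Mlana on that list lay below the array median on all 12 arrays. The part of these cells in the results was not tested.

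Over the 9 tumour arrays, the levels of the members fell into those that went up together and those that went down. Pearson's r was 0.97 for Myf6 and Mef2c, 0.95 for Myod1 and Mef2c, 0.93 for Myog and Mef2c, and 0.83 for Pax3 and Myf5, against -0.93 for Pax3 and Myog and -0.90 for Myf5 and Myog. These values describe 9 arrays in 3 groups and rest largely on the group differences already given. By the same measure the genes most like Mef2c were the slow troponin Tnnt1 (0.999), Filip1 (0.998) and the myosin-binding protein Mybph (0.997), and those most like Myf6 were Macf1 (0.997), the muscle LIM-domain gene Pdlim3 (0.993) and Prr32 (0.991). Myod1 was followed most closely by the cell adhesion gene Ncam1 (0.997), Enah (0.996) and Hid1 (0.996), and Myog by Sema6a (0.993), the matrix gene Tnc (0.993) and Tmem140 (0.990). For the falling genes, Myf5 was most like Ica1 (0.998), the import receptor Kpnb1 (0.995) and Fhdc1 (0.993), Pax3 most like Ido1 (0.987), Atpif1 (0.985) and the keratin Krt18 (0.978), and Pax7 most like Casp9 (0.940), Sp1 (0.934) and Hipk1 (0.927). Mef2a was most like Rab3gap2 (0.984), Uso1 (0.983) and Lrrc28 (0.983), the last of which is its neighbour on chromosome 7, and Mef2d most like Shisa4 (0.988), Mapre3 (0.985) and St8sia2 (0.980).

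**Figure D4:**
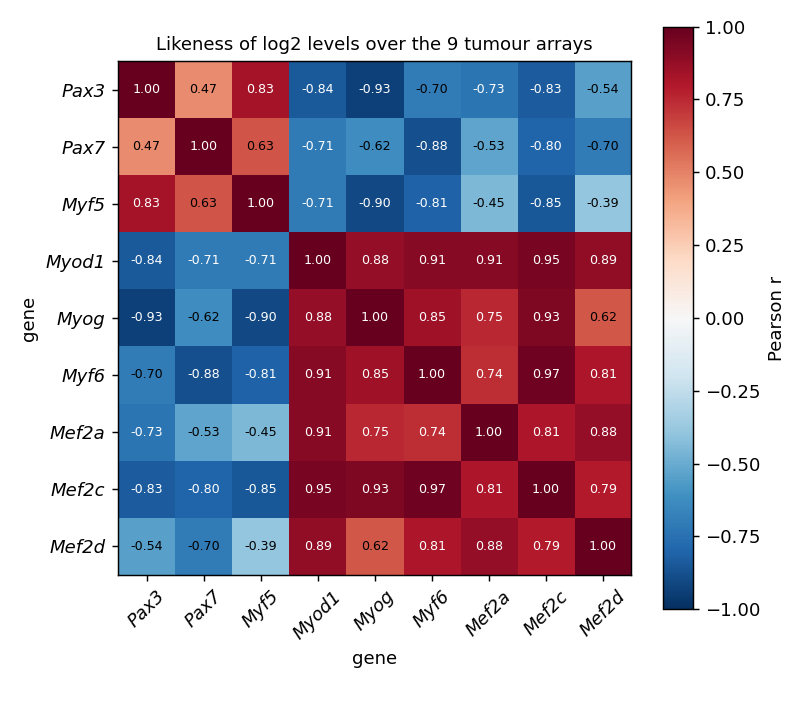
Pearson's r of log2 levels between each pair of the 9 genes over the 9 tumour arrays, from blue (negative) to red (positive). Myod1, Myog, Myf6, Mef2a, Mef2c and Mef2d form a block of positive values, and Pax3, Pax7 and Myf5 are negative against them, down to -0.93 for Pax3 and Myog.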

How the data were processed

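RNA of each sample was read on its own one-colour Affymetrix array, 12 in all and 3 per group. The deposited intensity of each probe set is linear and was made by the authors with RMA, per the submitters' processing notes, and its version is not given in the sources used here. Scanner files were not used here. Of 34760 probe sets, 21640 carried 1 gene symbol and were used, 1321 carried several and 11799 none. Log2 was taken, and the probe set with the highest mean over 12 arrays was kept per gene, which left 19937 genes with no filter on low values.

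A model of group means over the 12 arrays was fitted in limma 3.58.1 (lmFit and eBayes, R 4.3.3), and plots were drawn with matplotlib 3.10.9 in Python 3.11.15. Tests were two-sided, with p-values adjusted by Benjamini and Hochberg over all genes within each of 5 comparisons. The number of arrays limits precision: the median standard error of OFF3 minus TUM over all genes was 0.086, with 12.2 degrees of freedom. The labels do not say that replicates are separate animals, so p-values measure the spread between these samples, which may be technical. No 2 arrays held identical values. Replicate numbers are shared between groups, but only 3 of 18 same-numbered pairs had deviations correlated over 0.1 (-0.39 to 0.25), so the samples were not treated as paired.

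The 9 genes and the 16 lists (132 genes, 125 measured) were chosen with earlier results of these data known, and lists are described by counts and medians only. From each list, the 3 called genes with the largest difference, and the largest against the majority, could be named, and the 3 genes most like a member were those with the highest Pearson r over the 9 tumour arrays, leaving out predicted genes. The fit was tested on simulated data. Alternatives were the mean over probe sets, a filter at the median level, 3 other scalings, array weights, a robust variance with a trend, a replicate block, only the 6 arrays compared, log2(intensity + 16), a threshold of 0.01, a minimum fold of 2, all probe sets tested, and leaving out each array.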

Additional observations from a re-analysis of the deposited data

Results flagged for a closer look

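The change from TUM differed between day 6 and day 3 in 4 of the 9 genes, against 10.4% of all genes (limma, adjusted p under 0.05 over all genes). Both changes share the TUM arrays, so this contrast is the OFF6 minus OFF3 comparison already given and adds no further evidence. The day 6 change exceeded the day 3 change by 0.74 ± 0.10 for Mef2c, 0.73 ± 0.11 for Myf6, 0.65 ± 0.17 for Myod1 and 0.55 ± 0.16 for Mef2d. The dimmer Mef2d probe set gave 0.21 ± 0.17 and was not called (limma, adjusted p = 0.512). With only the 6 arrays compared 0 of the 9 passed (5 at an unadjusted p under 0.05), and the Myod1 and Mef2d calls were lost without many of the single arrays. No group had more than 3 arrays, so single arrays were not tested as outliers.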

How the results depend on the processing

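Leaving out 1 array gave 8 to 9 calls among the 9 genes for TUM minus CTL (68.3% to 78.8% of all genes). It gave 5 to 6 for OFF3 minus TUM (22.8% to 34.6%) and 6 to 9 for OFF6 minus TUM (24.4% to 34.5%). For OFF6 minus OFF3 it gave 2 to 5 (2.27% to 24.4%), and for OFF6 minus CTL 7 to 9 (57.5% to 65.3%). Requiring at least 2-fold left 4 calls for TUM minus CTL (22.3% of all genes), 1 for OFF3 minus TUM (3.81%), 4 for OFF6 minus TUM (4.47%), 0 for OFF6 minus OFF3 (0.542%) and 3 for OFF6 minus CTL (17.2%). For OFF6 minus OFF3, array weights gave 7 calls, only the 6 arrays compared 0 (limma, 5 at an unadjusted p under 0.05), an adjusted p under 0.01 gave 2 and all probe sets tested 2. Over all alternatives, 989 single-gene values kept direction and side of the threshold, 105 lost a call, 10 gained one and 11 turned sign. These totals include the threshold of 0.01 and the minimum fold of 2, which use the values of the model reported and can only remove calls. None of those that turned sign was called after turning. Mef2a became -0.0020 in TUM minus CTL with centring on the 75th percentile. Mef2d in OFF3 minus TUM became -0.02 with median centring, -0.0012 without TUM replicate 2 and -0.05 without OFF3 replicate 3 (leave-one-out range -0.05 to 0.09). Pax3 in OFF6 minus OFF3 became 0.01 with quantile normalisation or median centring, 0.02 with array weights, 0.06 without OFF3 replicate 3, 0.01 without OFF6 replicate 1 and 0.03 without OFF6 replicate 3 (leave-one-out range -0.13 to 0.06). Myf5 in OFF6 minus OFF3 became 0.02 with array weights. The cause was not tested.

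Over all genes, OFF6 minus OFF3 had 2080 calls, against 8424 with array weights, 30 with only the 6 arrays compared, 1277 with all probe sets tested, 521 without OFF6 replicate 1, 4874 without OFF6 replicate 2 and 452 without OFF6 replicate 3. Array weights gave 11175 calls against 5868 for OFF3 minus TUM and 10545 against 6279 for OFF6 minus TUM. With the replicate number as a block, which the labels do not tie to a shared source, OFF6 minus OFF3 had 1654 calls. Under the block Myod1 was not called in OFF3 minus TUM (0.50, adjusted p = 0.0615) or OFF6 minus OFF3 (0.65, adjusted p = 0.0510), nor Pax3 in OFF6 minus CTL (0.28, adjusted p = 0.0564), while Pax7 in OFF6 minus OFF3 (-0.26, adjusted p = 0.0447) and Mef2d in OFF6 minus CTL (-0.33, adjusted p = 0.0492) were. It changed no other call among the 9 genes. Of the list counts, 3552 stayed within 1.5 times and 448 did not. Without 1 array, between 9 (CTL replicate 2 or 3) and 23 (OFF6 replicate 3) list counts moved by over 1.5 times. Myf5 in CTL lay below the array median.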
